A study of Rattus norvegicus with 20 samples.

Results

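The data described are for 10 genes of transforming growth factor beta (TGF-beta) signalling, of 15503 in the deposited table, across cultures of neonatal rat cardiomyocytes treated with doxorubicin, histidine or both. They were chosen by name, as ligands (Tgfb1, Tgfb2, Tgfb3 and Inhba), receptors (Tgfbr1, Tgfbr2 and Tgfbr3), the inhibitor Smad7 and the secreted target genes Ccn1 and Ccn2. All 10 were found in the table, 8 under their own names and Ccn1 and Ccn2 under the older names CYR61 and CTGF. All 10 passed the filter on low counts that left 15449 genes, and no other gene of the table overlapped any of them on the genome.

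RNA was sequenced from 20 libraries in 4 groups of 5. The groups were histidine (100 nM) together with doxorubicin (1 µM), doxorubicin alone (1 µM), histidine alone (100 nM) and PBS (phosphate-buffered saline), each for 72 h. All 4 groups carry the same cell label, and no genetic change is stated for any. Doxorubicin is an anthracycline cancer drug that is toxic to the heart, and histidine is an amino acid. The design asks how histidine acts on cardiomyocytes, alone and together with doxorubicin. The labels name no separate cultures or animals for the replicates, and the spread behind the p-values may therefore be technical.

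TGF-beta ligands are secreted in a latent form and, once released, bring a type II receptor (Tgfbr2) and a type I receptor (Tgfbr1) together, and the activated type I receptor phosphorylates SMAD2 and SMAD3. Betaglycan (Tgfbr3) is a co-receptor that presents the ligands and binds TGF-beta 2 with high affinity. In the heart the pathway is best known for driving fibroblasts to become contractile, matrix-producing myofibroblasts. Ccn1 and Ccn2 encode matricellular proteins and are widely used as readouts of TGF-beta and of the YAP and TAZ co-activators, which act through TEAD factors.

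Total counts per library were 53246205 to 83624651. In the PBS cultures, the 16 fibroblast markers summed to 11.03% of CPM (counts relative to the library total) and the 16 measured cardiomyocyte markers to 0.119%, so most of the marker RNA did not go with the cell type on the label. With doxorubicin, against PBS, fibroblast markers summed to 8.93% against 11.03%, and cardiomyocyte markers to 0.0244% against 0.119%. Of the 16 fibroblast markers 3 were higher (Dcn, Fn1 and Thy1), 4 were lower (Col1a1, Col1a2, Col3a1 and Fap) and 9 did not pass edgeR's test, with a median log2 fold change of -0.03. The 12 smooth muscle and pericyte markers stood at 0.471% with doxorubicin against 0.884% with PBS, and the 14 macrophage and leukocyte markers at 0.00947% against 0.304%. Of the 10 measured endothelial markers 6 were lower and 3 higher, with a median log2 fold change of -1.98, although their sum was 73.0 CPM with doxorubicin and 66.8 CPM with PBS. Pecam1, Cdh5, Kdr, Tie1, Erg and Esam fell, and Tek, Flt1 and Egfl7 rose. No measured marker was at 0 counts in any group. Fewer cells of a type and less RNA per cell cannot be told apart in such libraries, which holds for every result below. Doxorubicin replicate 4 stood apart on the second principal component (7.43% of the variance), at 107.9 against -18.9 to 9.03 in the other 19 libraries. Values given per library follow the replicate numbers 1 to 5.

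With doxorubicin, against PBS, 8 of the 10 genes passed edgeR's quasi-likelihood test at an adjusted p under 0.05. Inhba and Tgfbr3 were higher, and Tgfb1, Tgfb2, Tgfb3, Tgfbr1, Ccn1 and Ccn2 were lower. Tgfbr2 and Smad7 did not pass. Of all 15449 genes tested, 43.2% passed, 21.7% higher and 21.5% lower. The libraries of both groups did not overlap for 7 of the 10 genes, against 31.1% of all genes. The median log2 fold change was -0.37 over the 10 genes and 0.05 over all genes. The 8 calls were also obtained without doxorubicin replicates 3 and 4 and without any other single library.

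**Figure D1:**
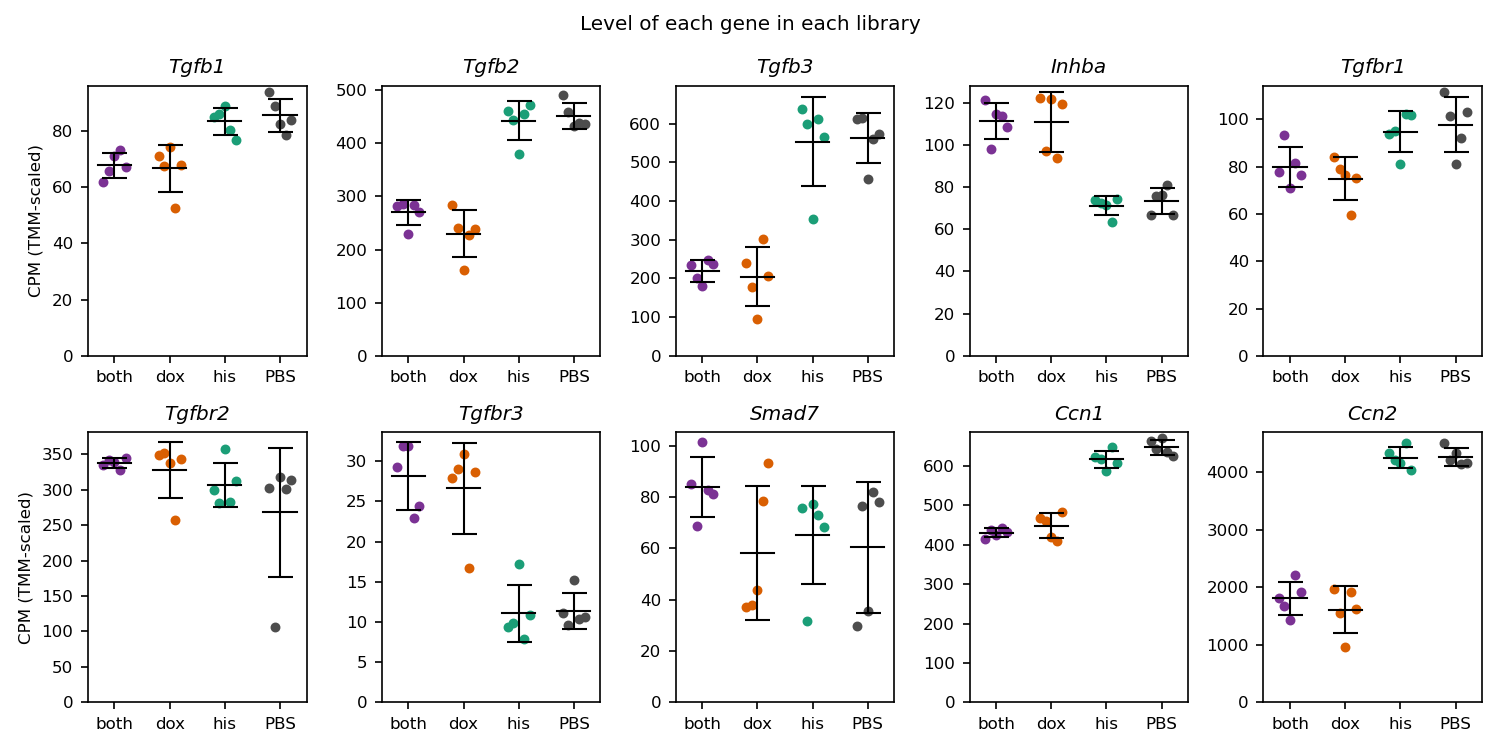
Level of each of the 10 genes in CPM (vertical axis, from 0) in every library, by group (both compounds, doxorubicin, histidine, PBS). Points are libraries in the order of their replicate numbers, long bars are means and whiskers are SD (n = 5). Ccn2, Ccn1, Tgfb1, Tgfb2, Tgfb3 and Inhba separate the cultures with doxorubicin from those without it, Tgfbr3 does so apart from doxorubicin replicate 4 (16.7 CPM) and histidine replicate 3 (17.2 CPM), and Smad7 spreads widely inside groups.

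The 3 TGF-beta ligand genes were all lower with doxorubicin, Tgfb3 most, while Inhba was higher. Tgfb3 (ENSRNOG00000009867, chromosome 6, 105704236 to 105726564, minus strand, mRatBN7.2) stood at 240.5, 177, 96.0, 302 and 208 CPM with doxorubicin, against 613, 614, 456, 559.8 and 574 CPM with PBS. The groups did not overlap, and replicate 3 was the lowest library in each. Tgfb3 fell 2.75-fold (log2 fold change -1.46 ± 0.22, SE; adjusted p 1.65e-05, edgeR).

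Tgfb2 (ENSRNOG00000002418, chromosome 13, 98160087 to 98261405, minus strand), which encodes the ligand that depends most on betaglycan, stood at 284, 239.9, 161, 226 and 238 CPM with doxorubicin. In the PBS libraries it stood at 491, 459, 433, 438 and 436 CPM. Every doxorubicin library lay below every PBS library, and replicate 3 was again lowest in both groups. Tgfb2 fell 1.96-fold (log2 fold change -0.97 ± 0.11, SE; adjusted p 4.33e-07, edgeR).

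Tgfb1 (ENSRNOG00000020652, chromosome 1, 81196532 to 81212847, plus strand), the ligand most studied in fibrosis, stood at 71.1, 67.6, 74.1, 52.5 and 68.0 CPM with doxorubicin and at 93.8, 88.9, 82.5, 78.6 and 83.9 CPM with PBS. The groups lay close but did not overlap, and doxorubicin replicate 4 was the lowest. Tgfb1 fell 1.28-fold (log2 fold change -0.36 ± 0.08, SE; adjusted p 0.00125, edgeR).

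Inhba (ENSRNOG00000014320, chromosome 17, 49095920 to 49108982, minus strand) encodes the beta A subunit of activin A, which signals through the same SMAD2 and SMAD3 but by activin receptors. It stood at 122, 97.2, 122, 93.9 and 119 CPM with doxorubicin and at 67.0, 75.6, 76.1, 81.1 and 67.0 CPM with PBS. All 5 doxorubicin libraries were above all 5 PBS libraries. Inhba rose 1.51-fold (log2 fold change 0.59 ± 0.09, SE; adjusted p 1.08e-05, edgeR).

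To compare genes with each other, the deposited values per length (FPKM) were used. The summed FPKM of Tgfb1, Tgfb2 and Tgfb3 was 156 ± 23.9 with doxorubicin and 317 ± 26.4 with PBS (SD, n = 5 each). Tgfb3 made up 38.6 ± 9.43% of that sum with doxorubicin and 52.2 ± 2.41% with PBS. Tgfb1 made up 28.7 ± 8.52% with doxorubicin and 16.9 ± 0.945% with PBS, and Tgfb2 32.7 ± 2.68% with doxorubicin and 30.8 ± 1.56% with PBS. The Tgfb3 share ranged from 25.8% to 52.1% with doxorubicin and from 48.0% to 53.9% with PBS. Only doxorubicin replicate 4 (52.1%) lay inside the PBS range, and the other doxorubicin libraries reached 40.1% at most. The Tgfb1 share ranged from 19.3% to 42.4% with doxorubicin and from 15.9% to 18.5% with PBS, with no overlap. No test was made of these shares.

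With both compounds the summed FPKM was 175 ± 12.0, against 316 ± 38.7 with histidine alone (SD, n = 5 each). The Tgfb3 share was 39.0 ± 2.52% with both compounds and 52.0 ± 5.06% with histidine, and the Tgfb1 share was 25.7 ± 2.71% with both compounds and 17.1 ± 3.32% with histidine. Here the Tgfb3 shares did not overlap, at 36.0% to 40.9% with both compounds and 43.1% to 55.1% with histidine. The Tgfb1 shares just overlapped, at 22.9% to 30.2% with both compounds and 15.2% to 23.0% with histidine. Tgfb3 was the first of the 3 ligands per length in all 10 libraries without doxorubicin. It was also first in the libraries with the drug, except doxorubicin replicate 3 and replicate 2 of both compounds. In the former Tgfb1 was first, at 50.3 FPKM against 30.6 FPKM for Tgfb3. In the latter Tgfb2 was first, at 65.7 FPKM against 62.9 FPKM for Tgfb3.

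**Figure D2:**
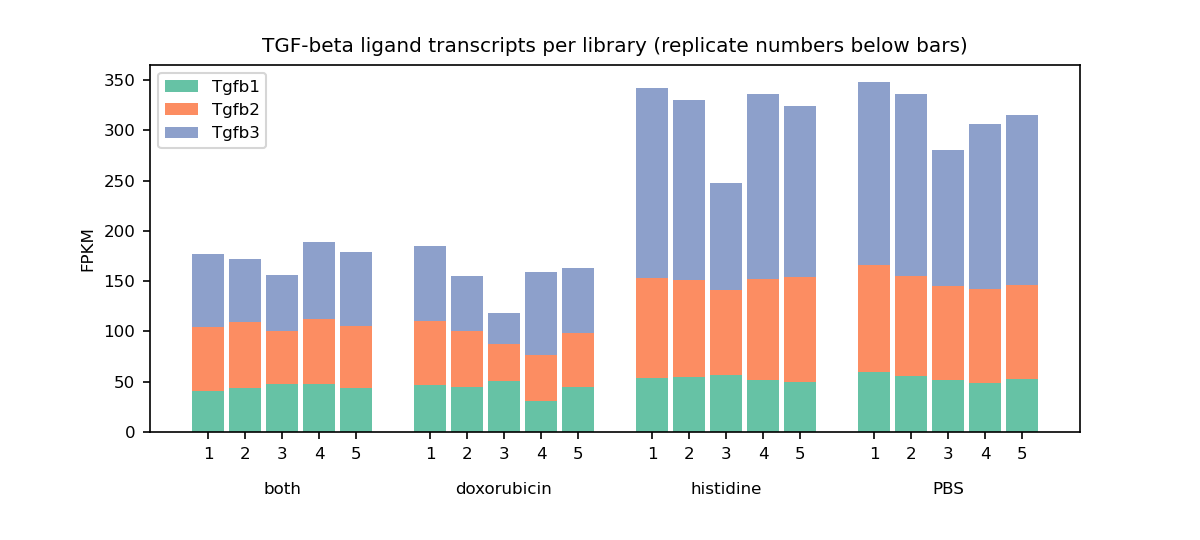
FPKM of Tgfb1, Tgfb2 and Tgfb3 stacked for each library (vertical axis), with replicate numbers 1 to 5 under the bars and the groups below them. The stacks reach 119 to 185 FPKM with doxorubicin and 280.3 to 348 FPKM with PBS, and Tgfb3 accounts for most of that difference.

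Among the receptors, the co-receptor Tgfbr3 was higher with doxorubicin, Tgfbr1 was slightly lower and Tgfbr2 did not pass the test. Tgfbr3 (ENSRNOG00000002093, chromosome 14, 2489397 to 2663341, plus strand) stood at 27.9, 29.0, 31.0, 16.7 and 28.7 CPM with doxorubicin, against 11.2, 9.64, 15.3, 10.4 and 10.6 CPM with PBS. The groups did not overlap, although doxorubicin replicate 4 at 16.7 CPM came near PBS replicate 3 at 15.3 CPM. Tgfbr3 rose 2.33-fold (log2 fold change 1.22 ± 0.20, SE; adjusted p 3.89e-05, edgeR).

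Tgfbr1 (ENSRNOG00000007036, chromosome 5, 61653233 to 61710777, plus strand), the type I receptor kinase, stood at 84.2, 79.2, 76.3, 59.7 and 75.1 CPM with doxorubicin and at 111, 101, 81.2, 91.9 and 103 CPM with PBS. PBS replicate 3 lay inside the doxorubicin range. Tgfbr1 fell 1.31-fold (log2 fold change -0.38 ± 0.10, SE; adjusted p 0.00417, edgeR).

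Tgfbr2 (ENSRNOG00000013265, chromosome 8, 115794537 to 115883228, minus strand), the type II receptor that binds the ligand first, stood at 349, 351, 338, 258 and 344 CPM with doxorubicin. With PBS it stood at 303, 106, 318, 301 and 313 CPM. PBS replicate 2 was far below the other 4 PBS libraries, and doxorubicin replicate 4 was the lowest doxorubicin library and lay below the other 4 PBS libraries. The log2 fold change was 0.29 ± 0.19 (SE; adjusted p 0.239, edgeR), and without PBS replicate 2 it was 0.09. The 3 genes whose log2 CPM followed Tgfbr2 most closely were Arhgef7, Eif1a and Kpna3 (Pearson r over the 20 libraries 0.96, 0.93 and 0.86). PBS replicate 2 is one of the libraries behind r, so their low values in it are part of what chose them and are given as a description. Arhgef7 stood at 18.2 CPM in it and at 47.3 to 49.9 CPM in the other PBS libraries. Eif1a stood at 0.0300 CPM in it and at 137 to 159 CPM in the others, and Kpna3 at 32.7 CPM against 89.8 to 96.3 CPM. In the 10 libraries with doxorubicin the r values were 0.84, -0.88 and 0.42, and in the 10 without it 0.97, 0.98 and 0.98. The high r of Eif1a and Kpna3 was thus found in the libraries without the drug, PBS replicate 2 among them. No r was computed without PBS replicate 2.

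Smad7 (ENSRNOG00000018359, chromosome 18, 68988429 to 69016765, plus strand) encodes the inhibitory SMAD that TGF-beta induces and that takes the receptor to degradation. It stood at 37.2, 37.8, 43.8, 78.6 and 93.3 CPM with doxorubicin and at 29.9, 76.5, 35.5, 81.9 and 78.0 CPM with PBS. The values of both groups lay either at 29.9 to 43.8 CPM or at 76.5 to 93.3 CPM, with none between. Some libraries of the 2 groups with histidine lay in that gap, at 68.5 to 75.9 CPM. The log2 fold change was -0.05 ± 0.31 (SE), with an interval of 2 SE from -0.68 to 0.57 and an adjusted p of 0.906 (edgeR), and without PBS replicate 4 it was 0.08. Of the 9445 genes with a mean of at least 10 CPM, 18.8% ranged more than 2-fold over the doxorubicin libraries, as Smad7 did. In the PBS libraries 3.63% did, Smad7 among them. The cause of the spread was not tested.

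Ccn2 and Ccn1 were the most abundant of the 10 genes per length and both were lower with doxorubicin. Ccn2, also called connective tissue growth factor, promotes matrix production, and Ccn1 is a matricellular protein that binds integrins. Their RefSeq promoters are shown because of the 10 genes only these 2 hold the core of the TEAD recognition site in the 250 bases before the start (GRCr8, the reference build, not that of the deposited table). The strands printed are those of the genes, 5′ to 3′, with the core, GGAATG or its reverse complement CATTCC, in capitals. The Ccn2 sequence is chr1:22624615-22624864 (minus strand) and the Ccn1 sequence is chr2:237225690-237225939 (minus strand).
Ccn2: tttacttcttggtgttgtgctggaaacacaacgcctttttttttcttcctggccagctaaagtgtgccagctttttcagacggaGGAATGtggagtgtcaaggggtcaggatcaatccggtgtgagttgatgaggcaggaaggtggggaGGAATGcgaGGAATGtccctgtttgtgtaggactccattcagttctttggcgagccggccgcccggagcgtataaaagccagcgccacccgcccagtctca
Ccn1: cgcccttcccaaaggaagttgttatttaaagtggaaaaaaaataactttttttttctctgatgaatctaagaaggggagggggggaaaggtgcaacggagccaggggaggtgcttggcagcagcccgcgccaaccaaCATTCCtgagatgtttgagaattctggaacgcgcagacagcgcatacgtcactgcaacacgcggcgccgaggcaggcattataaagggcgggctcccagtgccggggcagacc
The Ccn2 window held 3 copies, which begin 166, 101 and 92 bases before the start, and the Ccn1 window 1 copy, 113 bases before it. Of 33469 rat promoter windows of this length, 12.1% held at least 1 copy on either strand and 0.0807% held at least 3. A TATAAA box began 31 bases before the start in Ccn2, 34 in Ccn1 and 40 in Inhba, and 12.9% of windows held that motif on either strand. The SMAD palindrome GTCTAGAC was in 0 of the 10 windows and in 0.173% of all windows, and the AP-1 site TGANTCA in 0 of the 10 and in 6.34% of all. TATAAA did not overlap the TEAD core in these windows. A match describes the letters and does not show binding.

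Ccn2 (ENSRNOG00000015036, chromosome 1, 20802199 to 20805734, minus strand, mRatBN7.2) stood at 1975, 1559, 956, 1925 and 1613 CPM with doxorubicin, against 4504, 4202, 4321, 4134 and 4151 CPM with PBS. The highest doxorubicin library lay far below the lowest PBS library. Replicate 3 was the lowest of the doxorubicin libraries. Ccn2 fell 2.65-fold (log2 fold change -1.41 ± 0.14, SE; adjusted p 1.22e-07, edgeR).

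Ccn1 (ENSRNOG00000014350, chromosome 2, 234562408 to 234565484, minus strand) stood at 466.4, 461, 418, 410.2 and 482 CPM with doxorubicin and at 663, 642, 671, 635 and 626 CPM with PBS. The groups lay far apart and the spread inside each was small, with an SD of 31.4 CPM with doxorubicin and 19.0 CPM with PBS. Ccn1 fell 1.45-fold (log2 fold change -0.53 ± 0.05, SE; adjusted p 7.35e-08, edgeR).

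Per length, the order of the 10 genes differed between the groups below the first 2. With doxorubicin, mean FPKM was 546 for Ccn2 and 201 for Ccn1, and the next 5 genes overlapped in turn with their neighbours, at 67.9 for Inhba, 67.5 for Tgfbr2, 61.4 for Tgfb3, 51.3 for Tgfb2 and 43.4 for Tgfb1. Smad7 at 12.6 and Tgfbr1 at 11.3 overlapped, and Tgfbr3 was last at 6.46 FPKM. With PBS, mean FPKM was 1411 for Ccn2, 281 for Ccn1, 166 for Tgfb3 and 97.5 for Tgfb2, none overlapping the next. Tgfb1 at 53.6, Tgfbr2 at 53.03 and Inhba at 43.3 followed, with overlap between neighbours, then Tgfbr1 at 14.2 and Smad7 at 12.8, which overlapped, and Tgfbr3 at 2.65 FPKM. Inhba was thus the first of the 4 ligands by mean FPKM with doxorubicin, although its libraries overlapped those of Tgfb3, and the last with PBS.

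The drug's effect was measured a second time in other libraries, as histidine and doxorubicin together against histidine alone. There 7 of the 10 genes passed edgeR's test, Inhba and Tgfbr3 higher and Tgfb1, Tgfb2, Tgfb3, Ccn1 and Ccn2 lower, against 40.2% of all genes. The groups did not overlap for the same 7 genes, against 35.2% of all genes. The median log2 fold change was -0.27 over the 10 genes and 0.01 over all genes.

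Ccn2 stood at 1814, 1677, 1438, 2204 and 1912 CPM with both compounds, against 4321, 4208, 4161, 4507 and 4038 CPM with histidine, and fell 2.35-fold (log2 fold change -1.23 ± 0.14, SE; adjusted p 7.54e-07, edgeR). Tgfb3 stood at 235, 200.3, 180.0, 249 and 236 CPM with both compounds, against 638, 600.2, 353, 612 and 564 CPM with histidine. It fell 2.52-fold (log2 fold change -1.33 ± 0.22, SE; adjusted p 5.07e-05, edgeR), and replicate 3 was lowest in both groups. Tgfbr3 stood at 29.3, 32.0, 32.0, 23.0 and 24.5 CPM with both compounds, against 9.44, 9.88, 17.2, 7.95 and 10.9 CPM with histidine, and rose 2.54-fold (log2 fold change 1.34 ± 0.20, SE; adjusted p 1.45e-05, edgeR). None of these 3 genes overlapped between the groups.

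Tgfb2 stood at 283, 285, 229, 283 and 271 CPM with both compounds, against 461, 443, 379.6, 455 and 471 CPM with histidine, a log2 fold change of -0.71 ± 0.11 (SE; adjusted p 2.47e-05, edgeR). Inhba stood at 121, 98.2, 114, 114 and 109 CPM with both compounds, against 74.1, 72.7, 71.5, 63.6 and 74.5 CPM with histidine, a log2 fold change of 0.64 ± 0.09 (SE; adjusted p 4.58e-06, edgeR). Ccn1 ranged from 414 to 443 CPM with both compounds, against 588 to 647 CPM with histidine, a log2 fold change of -0.52 ± 0.05 (SE; adjusted p 1.10e-07, edgeR). Each of these 3 genes kept its groups apart.

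Tgfb1 ranged from 61.9 to 73.1 CPM with both compounds and from 76.6 to 88.7 CPM with histidine, a log2 fold change of -0.30 ± 0.08 (SE; adjusted p 0.00576, edgeR). Its call was lost when counts were scaled by library size only (adjusted p 0.0607) and in limma on FPKM (adjusted p 0.0549 and 0.0540). Tgfbr1 stood at 77.7, 93.3, 70.8, 81.5 and 76.4 CPM with both compounds and at 93.6, 95.1, 81.1, 102 and 102 CPM with histidine. Its groups overlapped and it did not pass (log2 fold change -0.25 ± 0.10, SE; adjusted p 0.0585, edgeR), but it passed without histidine replicate 3 (adjusted p 0.0275) and without replicate 2 of both compounds (0.0226). Tgfbr2 ranged from 328 to 344 CPM with both compounds and from 281 to 357 CPM with histidine, and Smad7 from 68.9 to 102 CPM and from 31.7 to 77.4 CPM. Neither passed, with log2 fold changes of 0.14 ± 0.19 and 0.36 ± 0.31 (SE; edgeR, adjusted p 0.616 and 0.392).

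**Figure D3:**
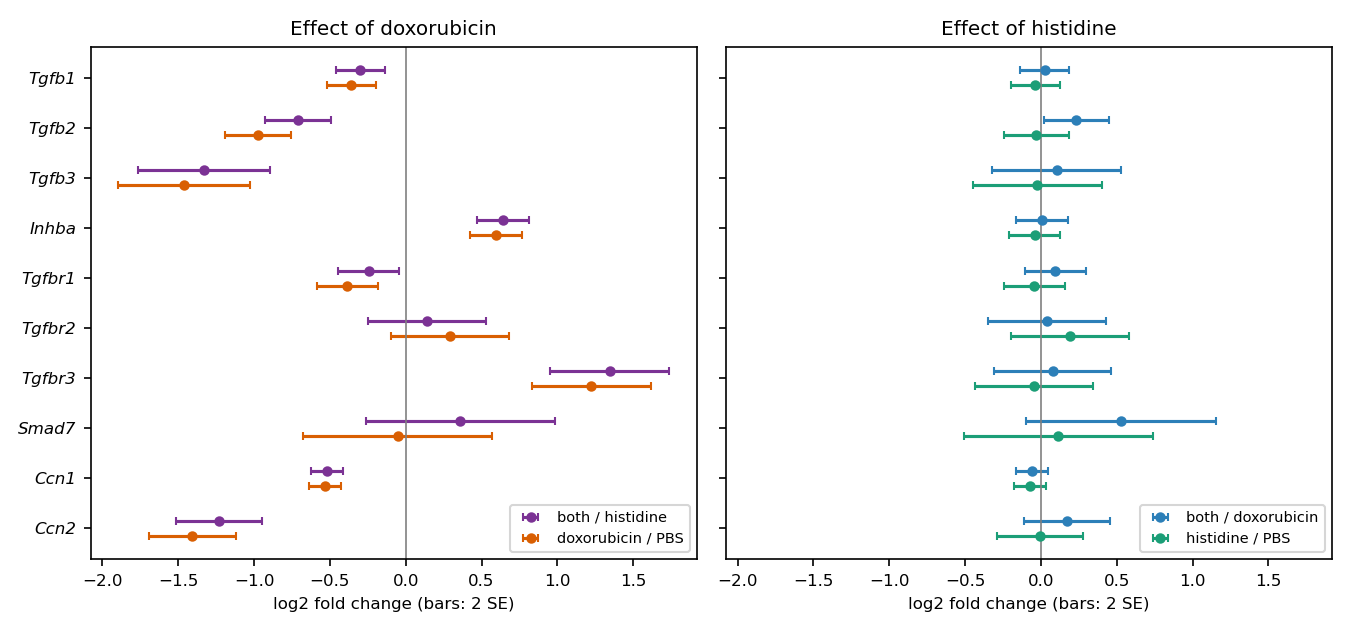
Log2 fold change (horizontal axis) of each of the 10 genes with bars of 2 SE, for doxorubicin in cultures with and without histidine (left) and for histidine in cultures with and without doxorubicin (right). On the left, Tgfb3 (-1.33 with histidine, -1.46 without) and Ccn2 (-1.23 and -1.41) lie farthest below 0 and Tgfbr3 (1.34 and 1.22) farthest above. On the right, no gene passed the test.

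Whether histidine altered these genes was asked without and with the drug. Histidine alone, against PBS, called 0 of the 10 genes, and 0 of all 15449 genes (0.0%) passed edgeR's test. At an unadjusted p under 0.05 there were 0 of the 10 genes and 2.02% of all genes, and DESeq2 called 5 genes, none of the 10. Tgfb1 averaged 83.4 ± 4.79 CPM with histidine and 85.5 ± 5.92 CPM with PBS, and Ccn2 averaged 4247 ± 177 CPM with histidine and 4262 ± 153 CPM with PBS (SD, n = 5 each). The log2 fold changes of the 10 genes ran from -0.07 for Ccn1 to 0.19 for Tgfbr2. For Ccn2 the interval of 2 SE was -0.29 to 0.28, and for Ccn1 it was -0.18 to 0.03. For Tgfb3 it was -0.45 to 0.40 and for Smad7 -0.51 to 0.74, so changes of the size seen with the drug in Tgfb3 lay outside it, and for Smad7 the spread left a wide range.

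Histidine added to doxorubicin, against doxorubicin alone, called 0 of the 10 genes and 0 of all genes (0.0%) in edgeR's test. At an unadjusted p under 0.05 there were 1 of the 10 genes and 12.6% of all genes, and DESeq2 called 20 genes, none of the 10. The one was Tgfb2, at 270.2 ± 23.6 CPM with both compounds and 229.9 ± 44.4 CPM with doxorubicin (SD, n = 5 each). Its log2 fold change was 0.23 ± 0.11 (SE; unadjusted p 0.0439 and adjusted p 0.395, edgeR), and the groups overlapped. Smad7 stood at 84.9, 68.9, 102, 82.6 and 81.3 CPM with both compounds, against 37.2, 37.8, 43.8, 78.6 and 93.3 CPM with doxorubicin. Its log2 fold change of 0.53 ± 0.31 (SE) was the largest of the 10 and had an interval of 2 SE from -0.10 to 1.15 (adjusted p 0.462, edgeR). Ccn2 stood at 1809 ± 284 CPM with both compounds and 1606 ± 407 CPM with doxorubicin, with an interval of 2 SE from -0.11 to 0.45.

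The interaction tested whether the effect of doxorubicin differed with histidine. None of the 10 genes passed, against 0.0% of all genes, with 0 of the 10 and 6.86% of all genes at an unadjusted p under 0.05 in edgeR, and DESeq2 called 15 genes, none of the 10. The largest differences were 0.41 ± 0.44 for Smad7 and 0.26 ± 0.15 for Tgfb2 on the log2 scale (SE; edgeR, adjusted p 0.750 and 0.631). For Ccn1 the interval of 2 SE was -0.13 to 0.16 and for Ccn2 -0.22 to 0.58.

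Other genes of the pathway were followed through 10 lists, with the 10 genes left out, and the values that follow are for doxorubicin against PBS in edgeR's test. The share of all genes that passed was 21.7% higher and 21.5% lower. Of 18 genes of ligand latency and activation, 8 were higher and 7 lower (median log2 fold change 0.06). Ltbp4, a latent TGF-beta binding protein, fell by 1.05 on the log2 scale. Of the other genes of such proteins on the list, Ltbp1 rose by 0.62, Ltbp3 fell by 0.32 and Ltbp2 did not pass. Itgb1, the beta 1 integrin, fell by 0.58. Of the other integrin genes on this list, Itgav, Itgb3, Itgb6 and Itgb8 were higher and Itgb5 was lower. Nrros, which tethers latent TGF-beta 1 on macrophages and microglia, fell by 5.59. Mmp2, a gelatinase able to release the ligand, rose by 1.25. The macrophage markers, of which 14 of 14 were lower, moved with Nrros, and their part in the result was not tested.

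Of 15 extracellular antagonists and binders, 9 were higher and 3 lower, with a median log2 fold change of 0.73 against 0.05 for all genes. Without doxorubicin replicates 3 and 4 together 7 were higher and 2 lower, and without doxorubicin replicate 1 there were 7 higher and 3 lower. Inhbb, which encodes the beta B subunit of inhibin B, an antagonist, but also of activin B, a ligand, stood at 139 ± 31.8 CPM with doxorubicin and 12.0 ± 2.94 CPM with PBS (SD, n = 5 each; log2 fold change 3.54). Fst, the activin antagonist follistatin, stood at 236 ± 42.9 CPM and 69.3 ± 10.9 CPM in the same groups, a log2 fold change of 1.77. Fstl3, a follistatin-like gene of this list, was lower, at 22.9 ± 2.54 CPM with doxorubicin and 37.1 ± 1.15 CPM with PBS (log2 fold change -0.69). Cd109, a co-receptor that inhibits TGF-beta signalling, rose by 1.64 on the log2 scale, and Fmod, the matrix proteoglycan fibromodulin, fell by 1.51.

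Of 12 other ligands of the superfamily, 6 were higher and 2 lower. Gdf15, a stress hormone, stood at 83.4 ± 7.38 CPM with doxorubicin and 9.05 ± 1.69 CPM with PBS (log2 fold change 3.20). Bmp3, Bmp6 and Gdf11, all secreted ligands, rose by 1.62, 0.69 and 0.59. The count of lower ligands was 1 without doxorubicin replicate 3 or 5 or PBS replicate 4 or 5.

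Of 10 other type I, II and III receptors, 2 were higher and 1 lower. Acvrl1, the ALK1 receptor, fell by 0.61 on the log2 scale. The co-receptor endoglin (Eng) and the activin receptor Acvr2a passed at 0.24 and 0.23 (adjusted p 0.0303 and 0.0452, edgeR). The call of Eng was lost without doxorubicin replicate 1, 2 or 5 or PBS replicate 1, 2 or 3, with values of 0.21 to 0.27 over all single libraries left out. That of Acvr2a was lost without doxorubicin replicate 1, 2, 3 or 5 or PBS replicate 1, 3, 4 or 5, with values of 0.19 to 0.28. Acvr2b, at 0.67, did not pass (adjusted p 0.0571), but passed without doxorubicin replicate 2 or PBS replicate 3 or 4, with values of 0.45 to 0.82 over single libraries left out. It also passed by library size only (adjusted p 0.0403), with the filter at 1 CPM (0.0495), in DESeq2 (0.0349) and in limma on FPKM (0.0165 and 0.0102).

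Of 13 SMADs and cofactors, 3 were higher and 1 lower. Smad3, the effector of TGF-beta, rose by 0.38, Smad6, an inhibitory SMAD, by 0.60 and Smad9, an effector of BMP signals, by 0.86 on the log2 scale, and Zeb2, a SMAD-binding repressor, fell by 0.34. Of 13 genes of receptor and SMAD turnover, 4 were higher and 2 lower, and the count of higher genes was 1 without PBS replicate 1 and 2 without PBS replicate 4 or 5 and without doxorubicin replicates 3 and 4 together. Smurf1, a ubiquitin ligase, and Pmepa1, a feedback inhibitor that TGF-beta induces, fell by 0.41 and 0.38. Usp11, a deubiquitinase, rose by 0.32. Bambi, a decoy receptor, was at 0.35 (adjusted p 0.0173, edgeR), and at 0.27 without PBS replicate 1, where its call was lost.

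Of 37 measured SMAD target genes, 17 were lower and 9 higher, with a median log2 fold change of -0.23. Tgfbi, a matrix protein, fell by 2.36 on the log2 scale and Cnn1, the smooth muscle protein calponin, fell by 2.27. Id2, which TGF-beta lowers and BMP raises in many cells, rose by 1.18. Among these targets Acta2, Tagln and Cnn1 are also on the smooth muscle and pericyte marker list, of which 9 of 12 genes were lower and 1 higher. The fibroblast marker list shares Col1a1, Col1a2, Col3a1 and Fap, which were lower, Fn1, which was higher, and Postn, which did not pass. The part of these cells in the result was not tested.

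Of the 4 other CCN genes, 1 was lower and 1 higher. Ccn3, which has opposed Ccn2 in several models, stood at 488 ± 82.4 CPM with doxorubicin and 935 ± 54.3 CPM with PBS (SD, n = 5 each; log2 fold change -0.94). Ccn4 passed at 0.24 (adjusted p 0.0302, edgeR), with 0.18 to 0.32 over single libraries left out, and lost its call without doxorubicin replicate 1, 2 or 3 or PBS replicate 3, 4 or 5. Ccn5 stood at 0.05 and at -0.17 without doxorubicin replicate 4, and did not pass. Ccn6 was near 0, at 0.0771 CPM with doxorubicin and 0.153 CPM with PBS.

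Of 18 other YAP and TEAD targets, 8 were higher and 3 lower, with a median of 0.27 on the log2 scale, so that Ccn1 and Ccn2 were lower while more of the called genes of this list were higher than lower. Ankrd1, a muscle ankyrin repeat protein, was among the lower ones at -0.87, and Foxf2, Fjx1 and Arhgef17 rose by 1.15, 0.95 and 0.38. The count of higher targets was 4 without doxorubicin replicate 1 or 2 or PBS replicate 4 and 5 without doxorubicin replicate 3 or 5 or PBS replicate 1. The count of lower ones was 1 without PBS replicate 4. Under the other alternatives the counts were 3 to 9 higher and 1 to 4 lower. Of 15 genes of the YAP pathway, 3 were higher and 3 lower. The co-activator Yap1 and the TEAD partner Vgll3 rose by 0.25 and 0.30. The upstream kinase Stk4 and Mob1a, also on this list, fell by 0.74 and 0.45.

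**Figure D4:**
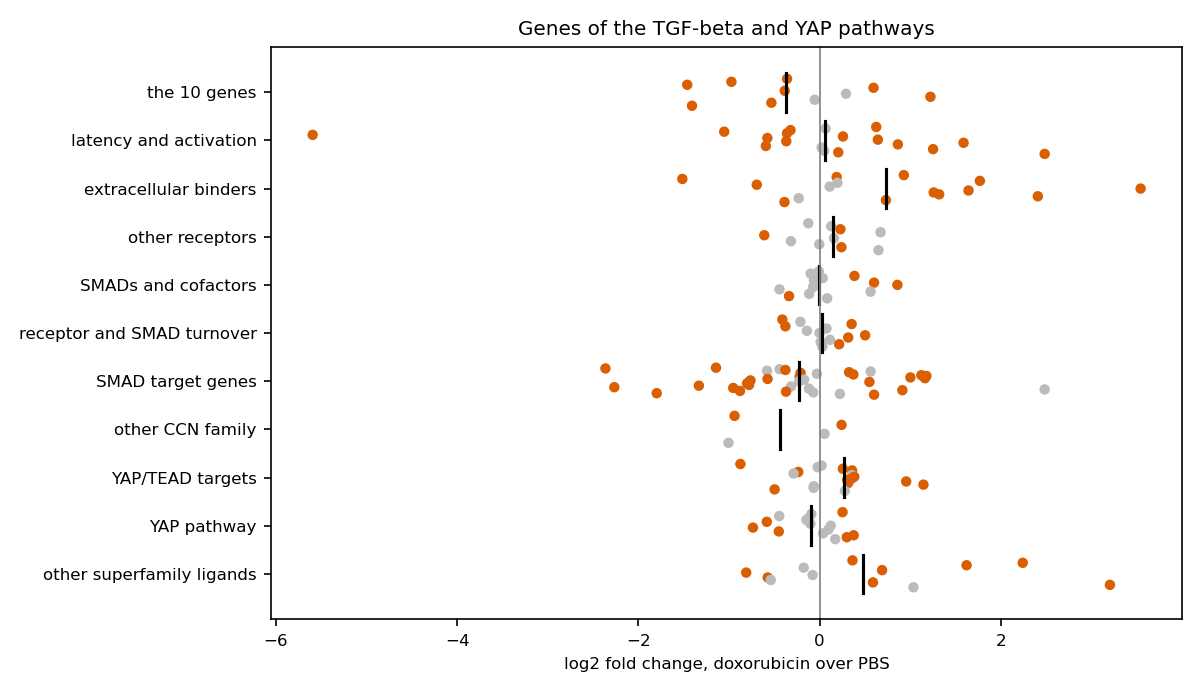
Log2 fold change of doxorubicin over PBS (horizontal axis) for the 10 genes and for each pathway list (rows). Each point is a gene, orange where it passed the test and grey where it did not, and the black line is the row's median. The extracellular binders have a median of 0.73 and the SMAD target genes one of -0.23.

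In the second measurement of the drug, both compounds against histidine, 7 of the 15 extracellular binders were higher and 3 lower, 16 of the 37 SMAD targets were lower and 9 higher, and 8 of the 18 YAP and TEAD targets were higher and 4 lower. The median log2 fold changes of these lists were 0.43, -0.21 and 0.30 in that order, against 0.01 for all genes. Of all genes, 19.9% were higher and 20.3% lower there.

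Libraries inside a group also differed in step for some of the 10 genes. Replicate 3 had the lowest Tgfb2 and the lowest Tgfb3 in all 4 groups and the highest Tgfbr3 in all 4 groups, with replicate 2 level with it at 32.0 CPM in the cultures with both compounds. The same libraries had the lowest Acta2, which encodes smooth muscle actin and marks myofibroblasts, at 972 CPM with doxorubicin and 3652 CPM with PBS, and at 1604 CPM with both compounds and 3065 CPM with histidine. Tagln was lowest in replicate 3 with doxorubicin (941 CPM) and with histidine (1677 CPM). With PBS, however, Tagln was lowest in replicate 1 (2033 CPM), and with both compounds in replicate 2 (1219 CPM). The labels give the replicate number no meaning. The summed CPM of the 12 smooth muscle and pericyte markers was 5177, 4447, 2937, 6143 and 4843 with doxorubicin and 9231, 9267, 7843, 8841 and 8991 with PBS. Acta2 and Tagln, which are also on the list of SMAD targets, were large parts of this sum. In doxorubicin replicate 4 they stood at 2130 and 2945 CPM, and their PBS medians were 4286 and 2121 CPM. With doxorubicin, the order of the libraries by this sum was also their order by Tgfb3, with replicate 3 lowest and replicate 4 highest in both. With PBS, replicate 3 was lowest in both and replicate 2 highest in both. The sum ranged from 6721 to 9513 with histidine, where replicate 3 was lowest and replicate 1 highest in the sum and in Tgfb3. With both compounds the sum ranged from 4455 to 5551, and its lowest library was replicate 2, whereas Tgfb3 was lowest in replicate 3. Tgfb2 and Ccn2 did not follow the sum throughout. With doxorubicin these 2 genes were highest in replicate 1 (284 and 1975 CPM), whereas replicate 4, with the highest sum, had 226 and 1925 CPM. Ccn2 was lowest in replicate 4 with PBS and in replicate 5 with histidine. The part of these cells in the levels of Tgfb3, Tgfb2 and Ccn2 was not tested.

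**Figure D5:**
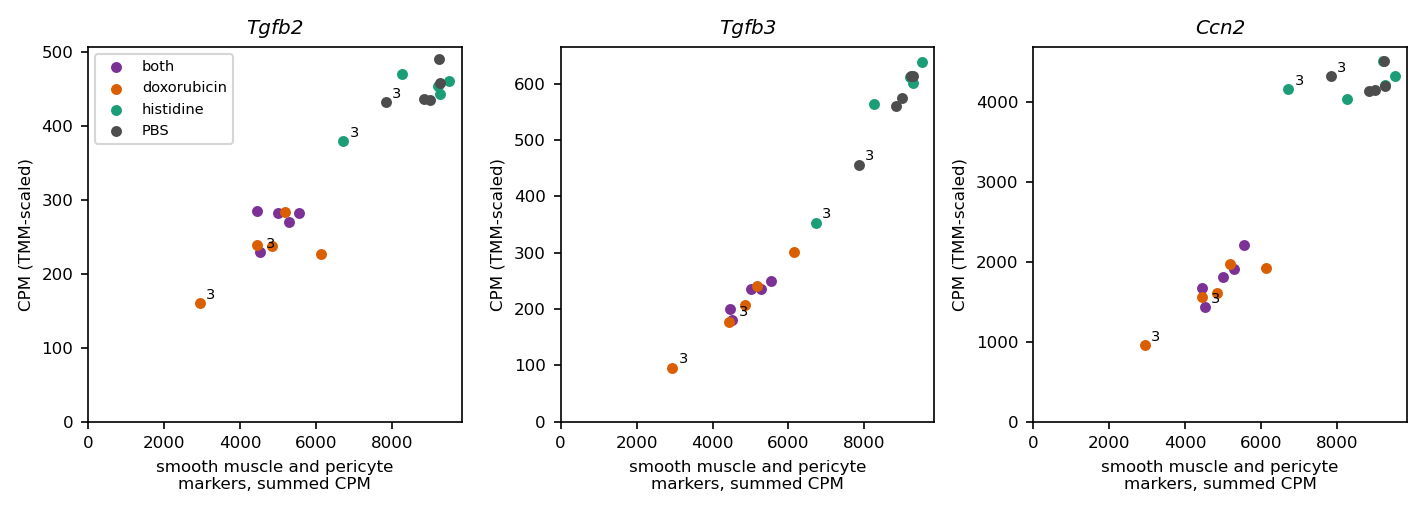
CPM of Tgfb2, Tgfb3 and Ccn2 (vertical axes) against the summed CPM of 12 smooth muscle and pericyte markers (horizontal axis) in the 20 libraries, coloured by group, with replicate 3 of each group marked. The doxorubicin libraries lie at sums of 2937 to 6143 and the PBS libraries at 7843 to 9267. The libraries with the lowest sums have the lowest Tgfb3 in the doxorubicin, histidine and PBS groups but not with both compounds. Ccn2 is not lowest in replicate 3 with PBS or with histidine. Acta2 and Tagln, also on the list of SMAD targets, are large parts of the sum.

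The genes with log2 CPM most like that of Tgfb2 over the 20 libraries were Vldlr, Adamts12 and Deptor, each with a Pearson r of 0.99, and with 0.98, 0.96 and 0.93 in the 10 libraries with doxorubicin and 0.83, 0.77 and 0.87 in the 10 without it. For Ccn2 they were Ccn3, Rasl11b and C19h1orf198 (r of 0.99, 0.99 and 0.98). Among the 10 libraries with doxorubicin those values were 0.93, 0.97 and 0.94, and among the 10 without it 0.55, 0.0041 and 0.17. The 20 libraries share the division by the drug, and these r values are given as a description.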

How the data were processed

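RNA was captured on oligo(dT) beads and copied from random hexamers without marking the strand, per the labels' protocols. Per the submitters' processing notes, Trimmomatic was used and the build was mRatBN7.2; which aligner, counter and annotation were used is not given in the sources used here. As deposited by the authors, 1 table held raw read counts per gene (whole numbers) and FPKM values scaled per gene length and library, per the file headers. Its entries that name no gene numbered 0. Symbols came from the table's protein accessions, KEGG names and protein names, looked up in a GRCr8 gene table; 10493 genes received one.

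Counts were filtered with filterByExpr (15449 genes left), scaled by TMM and tested with edgeR 4.0.16 (R 4.3.3), quasi-likelihood F test, all 20 libraries in 1 fit of 4 groups, no block, Benjamini-Hochberg adjustment over all genes, threshold 0.05. Levels are CPM after TMM. The SE is the log2 fold change divided by the square root of F. Alternatives used DESeq2 1.42.0, limma 3.58.1 on log2(FPKM + 0.1) and log2(FPKM + 1), other scalings and filters, a replicate block, only the groups compared, and libraries left out. The procedure was tested on simulated data.

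Total counts per library were 53246205 to 83624651. All 40 within-group library pairs differed beyond sampling noise (chi-square over degrees of freedom between 34.5 and 645); none was treated as a duplicate. The 10 genes, the lists and the markers were chosen with earlier results of these data known. From each of 10 pathway lists the 4 measured genes with the smallest p in doxorubicin against PBS were named, and for Tgfb2, Tgfbr2 and Ccn2 the 3 genes with the highest Pearson r. A gene that this rule took is not reported here. Further marker genes, the other integrin and latent binding protein genes, and Fstl3 were named after their values were seen. Listed genes without a measured row in this table were not analysed here. Motifs were searched on both strands of RefSeq promoters (GRCr8).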

Additional observations from a re-analysis of the deposited data

Results flagged for a closer look

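In 8 of the 40 sets of 5 libraries (10 genes in 4 groups), 1 library lay far from the other 4 by Dixon's ratio of the gap to the range. For normally spread values chance gives about 2 of 40. The 10 genes share the same libraries, so the sets are not independent and both counts are given as a description.

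Tgfbr2 stood at 258 CPM in doxorubicin replicate 4, against 338 to 351 CPM in the other doxorubicin libraries. In PBS replicate 2 it stood at 106 CPM, against 301 to 318 CPM. Tgfbr3 stood at 16.7 CPM in doxorubicin replicate 4, against 27.9 to 31.0 CPM, and at 15.3 CPM in PBS replicate 3, against 9.64 to 11.2 CPM. Tgfb2 stood at 229 CPM in replicate 3 of both compounds, against 271 to 285 CPM. Tgfb3 stood at 353 CPM in histidine replicate 3, against 564 to 638 CPM. Inhba stood at 63.6 CPM in histidine replicate 4, against 71.5 to 74.5 CPM. Smad7 stood at 31.7 CPM in histidine replicate 2, against 68.5 to 77.4 CPM. The cause of these single values was not tested.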

How the results depend on the processing

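For doxorubicin against PBS, 8 of the 10 genes passed under every alternative run, and 5460 to 7298 genes passed overall. For both compounds against histidine 6 to 8 passed, the calls of Tgfb1 and Tgfbr1 being those that changed. Scaling by library size only gave 3946 higher and 2863 lower genes for doxorubicin against PBS. Correlations of deviations between same-numbered libraries ran from -0.0305 to 0.193 and passed 0.1 in 1 of 20 pairs, so the numbers were not taken as pairs, although replicate 3 was above 0 in all 4 comparisons. With the replicate block 6579 genes and 8 of the 10 passed for doxorubicin against PBS, and 6310 genes and 8 of the 10, Tgfbr1 added (adjusted p 0.0381), for both compounds against histidine; no other call of the 10 changed under the block. Acvr2b passed under it for doxorubicin against PBS (adjusted p 0.0486).

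Counts of genes where 0 passed moved as follows. For histidine against PBS they were 5 in DESeq2, 1 in limma on log2(FPKM + 1), 1 without doxorubicin replicates 3 and 4, and 0 to 1 with any 1 library left out. For both compounds against doxorubicin they were 20 in DESeq2, 2 by library size only, 2 without doxorubicin replicates 3 and 4, and 0 to 6 with 1 library left out (6 without doxorubicin replicate 2). For the interaction they were 15 in DESeq2 and 0 to 2 with 1 library left out. None was one of the 10.

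Signs turned only among values not past the test. With 1 library left out, log2 fold changes ran, for doxorubicin against PBS, from -0.29 to 0.081 for Smad7 and -0.17 to 0.19 for Ccn5; for histidine against PBS, from -0.054 to 0.020 for Tgfb2, -0.092 to 0.099 for Tgfb3, -0.10 to 0.0066 for Tgfbr1, -0.011 to 0.26 for Tgfbr2, -0.26 to 0.084 for Tgfbr3, -0.057 to 0.29 for Smad7 and -0.027 to 0.015 for Ccn2; for both compounds against doxorubicin, from -0.051 to 0.065 for Tgfb1, -0.075 to 0.29 for Tgfb3, -0.049 to 0.047 for Inhba, -0.034 to 0.067 for Tgfbr2 and -0.051 to 0.14 for Tgfbr3; and for the interaction, from -0.013 to 0.10 for Tgfb1, -0.049 to 0.31 for Tgfb3, -0.0066 to 0.089 for Inhba, -0.23 to 0.052 for Tgfbr2, -0.0070 to 0.34 for Tgfbr3 and -0.016 to 0.042 for Ccn1. By library size only, Ccn2 was 0.017 for histidine against PBS, and it was 0.019 in limma at both pseudocounts; Smad7 was 0.0059 and 0.0021 in limma for doxorubicin against PBS. Without doxorubicin replicates 3 and 4, both compounds against doxorubicin gave -0.024 for Tgfb1, -0.022 for Inhba, -0.044 for Tgfbr2 and -0.021 for Tgfbr3, the interaction gave -0.056 for Ccn1, and doxorubicin against PBS gave -0.034 for Ccn5.

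By counts in place of FPKM, which favours longer transcripts, the Tgfb1 share of the 3 ligands was 12.2% with both compounds, 14.1% with doxorubicin, 7.90% with histidine and 7.79% with PBS, and the Tgfb2 share was 48.4% with both compounds, 46.2% with doxorubicin, 41.3% with histidine and 41.1% with PBS. On log2(FPKM + 1), log2 fold changes of low genes were smaller: -2.62 for Nrros, -1.37 for Tgfbi and 0.46 for Foxf2. With only the groups compared in the fit, doxorubicin against PBS lost the calls of Acvr2a, Bambi and Ccn4 (adjusted p 0.0729, 0.0659 and 0.0869, edgeR), and both compounds against histidine gained that of Tgfbr1 (0.0298). Elsewhere the cause of a changed value was not tested.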
